A study of Mus musculus with 24 samples.

Results

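The miRNAs of the imprinted Dlk1-Dio3 region were followed through tumors, metastases, normal tissues and cultures in a mouse model of mammary cancer grown from JygMC(A) cells. Members were taken by name: the rows of the nCounter mouse miRNA panel whose miRNA number belongs to a list of miRNAs of this region. The list found 58 of the 566 mouse miRNA rows. Of these, 18 belong to the segment from Meg3 to Rian and 40 to the segment around Mirg. The rule reads names and no measured values.

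The Dlk1-Dio3 region is imprinted, which means that each of its genes is read from the chromosome of a given parent. The protein-coding genes Dlk1, Rtl1 and Dio3 are expressed from the paternal chromosome, whereas the noncoding RNAs Meg3, Rian and Mirg and the miRNAs among them come from the maternal chromosome, where they are read in the same direction. This miRNA cluster is among the largest known in mammals and is best known from the embryo, the placenta, the brain and muscle, and it is often low or silent in epithelial cells. A mature miRNA represses messenger RNAs that pair with its seed, the bases near its 5′ end, so members with different seeds can act on different targets.

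The 24 samples form 7 conditions. JygMC(A) is a cell line from a spontaneous mouse mammary carcinoma with a mouse mammary tumor virus insertion in the Notch4 locus, and the JygMC(A)-GFP/Luc cells used here also carry green fluorescent protein and luciferase. Tumors grew from these cells in the mammary fat pad of BalbC nude mice, which lack a normal thymus and its T cells but keep other host cells. Laser microdissection gave 5 samples of carcinoma areas and 7 of spindle-shaped EMT-like areas from the primary tumors (PT), and 4 of lung metastasis. NMG, the normal mammary gland, and normal lung parenchyma were both taken from the same 2 BalbC nude mice, whose labels name no tumor or treatment. The same cells were grown as monolayers (n = 2) and as third-generation 3D spheres on ultra-low adherent plates (n = 2). Per the study's methods the mice were female and between 6 and 9 weeks old; the labels give no age for single animals. Several areas came from the same animal, and replicate 1 of the carcinoma, EMT-like and lung metastasis samples carries a label that names 3 animals and counts as 1 sample.

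RefSeq sequences (GRCm38.p6) were matched to 56 of the 58 rows; miR-299 and miR-496 had no match. The 86 matched mature miRNAs lie on the plus strand of chromosome 12 between 109563710 and 109743784, a span of 180.1 kb. The table names the arm of the hairpin for 22 members and leaves it out for 36, so for these no arm is assumed. Both arms are shown where RefSeq holds them, except for miR-376b, miR-300 and miR-381, where the other arm is left out. In the sequences, written 5′ to 3′, capitals mark the seed at bases 2 to 8. The first set is shown because miR-127 and miR-136, the members with the highest values of the Meg3 to Rian segment in NMG, lie inside the annotated interval of Rtl1. Rtl1 is read in the opposite direction, and these miRNAs are known to pair perfectly with its RNA.
miR-127-5p (chr12:109592854-109592875): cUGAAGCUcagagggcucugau
miR-127-3p (chr12:109592888-109592909): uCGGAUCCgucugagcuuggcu
miR-136-5p (chr12:109595331-109595352): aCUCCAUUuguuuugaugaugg
miR-136-3p (chr12:109595366-109595387): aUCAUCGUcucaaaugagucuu

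The next set holds Mirg-segment members with lower values in tumors than in NMG, and shows which of them resemble each other. miR-379-3p and miR-411-3p share the seed AUGUAAC, and miR-376b-5p and miR-376c-5p share UGGAUAU and are identical at 21 of 22 bases. miR-300-3p and miR-381-3p are identical at 19 of 22 bases but differ within the seed (G4A, counted from the 5′ end with the base of miR-300-3p first). miR-376a-3p, shown in the last set, and miR-376b-3p, which is not shown, are identical at 18 of 21 bases. They also differ within the seed (G4A, with the base of miR-376a-3p first). A probe for 1 of such a pair might also take up the other, and the table does not settle this.
miR-379-5p (chr12:109709065-109709085): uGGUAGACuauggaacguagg
miR-379-3p (chr12:109709102-109709123): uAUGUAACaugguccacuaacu
miR-411-5p (chr12:109710190-109710210): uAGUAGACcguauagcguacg
miR-411-3p (chr12:109710225-109710246): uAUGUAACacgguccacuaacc
miR-376b-5p (chr12:109723471-109723492): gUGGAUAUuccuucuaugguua
miR-376c-5p (chr12:109722733-109722754): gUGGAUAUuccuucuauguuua
miR-300-3p (chr12:109724363-109724384): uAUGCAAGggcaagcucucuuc
miR-381-3p (chr12:109726870-109726891): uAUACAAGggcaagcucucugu
miR-495-5p (chr12:109718757-109718779): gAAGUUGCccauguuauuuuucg
miR-495-3p (chr12:109718795-109718816): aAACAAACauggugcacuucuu

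The last set holds miR-323-3p, whose probe names its arm, and the 3 members above the detection limit in every sample.
miR-323-3p (chr12:109712558-109712578): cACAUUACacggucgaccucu
miR-154-5p (chr12:109738438-109738459): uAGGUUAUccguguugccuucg
miR-154-3p (chr12:109738474-109738495): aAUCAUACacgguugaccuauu
miR-376a-5p (chr12:109723786-109723807): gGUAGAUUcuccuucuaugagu
miR-376a-3p (chr12:109723824-109723844): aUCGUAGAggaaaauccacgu
miR-543-5p (chr12:109717269-109717289): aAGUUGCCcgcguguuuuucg
miR-543-3p (chr12:109717304-109717325): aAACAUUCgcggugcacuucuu

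Among all 86 sequences there were 83 distinct seeds, so apart from 3 shared pairs the members had seeds of their own. The third shared pair is miR-410-5p and miR-494-5p with GGUUGUC. By position, miR-770 lies inside the annotated interval of Meg3, the hairpins of miR-127, miR-136, miR-337, miR-431, miR-433, miR-434, miR-493, miR-540, miR-665 and miR-673 lie inside that of Rtl1, and miR-341 and miR-370 lie inside that of Rian. The hairpins of miR-154, miR-369, miR-377, miR-409, miR-410, miR-412 and miR-541 lie inside Mirg, and the other matched Mirg-segment hairpins lie before it, between annotated genes.

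Each deposited value is a count of probe barcodes from which the mean of the 6 negative control probes of that lane had been subtracted, so values near 0 can be negative. A member counts as detected where it exceeds a limit set lane by lane, the negative controls' mean plus 2 SD, which lay between 4.0 and 21.4. Member values were low: 39.5% of them were below 0, and 10 members were not detected in any sample. Lanes differed in depth. The summed mouse miRNA values were 525225 and 559660 in NMG, while carcinoma lanes lay between 113594 and 162045, EMT-like lanes between 110552 and 183539, metastasis lanes between 61497 and 114004, and culture lanes between 24418 and 44953. Normal lung replicate 2 stood apart, with 2334955 against 589588 in replicate 1.

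NMG held most of the detected members. In NMG, 36 and 37 of the 58 members were detected, and 35 were detected in both samples. In normal lung the numbers were 16 in replicate 1 and 34 in the deeper replicate 2. The 7 EMT-like samples had 20, 19, 10, 15, 16, 16 and 16 members, and the 5 carcinoma samples had 5, 14, 4, 8 and 8. The lung metastases had 11, 3, 4 and 12, the monolayers 4 and 10, and the spheres 6 and 5. EMT-like and carcinoma samples overlapped only through carcinoma replicate 2 and EMT-like replicate 3. The detection limit moved with these numbers: it was 20.5, 20.6 and 19.7 in carcinoma replicates 1, 3 and 4, but 9.38 and 8.76 in replicates 2 and 5, and from 10.8 to 17.3 in EMT-like areas. With a fixed limit of 20 in every lane, the carcinoma samples had 5, 7, 5, 8 and 3 members and the EMT-like samples 7, 8, 7, 8, 12, 8 and 12, so the gap in detection was smaller. Of all 566 mouse miRNA rows, 358 and 345 were detected in NMG and 257 and 368 in normal lung. EMT-like lanes had 200 to 258, carcinoma lanes 150 to 227 and metastasis lanes 135 to 237. Monolayers had 104 and 126, and spheres 108 and 119. Fewer rows of the whole panel were thus detected in tumors and cultures than in NMG, as with the members. The part of depth in the number detected was not tested.

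The share of the cluster in the summed miRNA values gave another order. Because miR-154, miR-376a and miR-543 were detected in every sample and make up much of the sum, the share was taken over the other 55 members, a choice made after their values were seen. It was 0.521% and 0.633% in NMG, between 0.214% and 0.375% in EMT-like areas, between 0.0765% and 0.278% in carcinoma, and between 0.0848% and 0.216% in lung metastasis. Normal lung had lower shares than NMG, at 0.101% and 0.138%. NMG did not overlap with the tumor samples. The cultures ranged from 0.310% to 1.07%, with small totals and between 1 and 7 of these 55 members detected, so that members under the limit also enter this share.

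**Figure D1:**
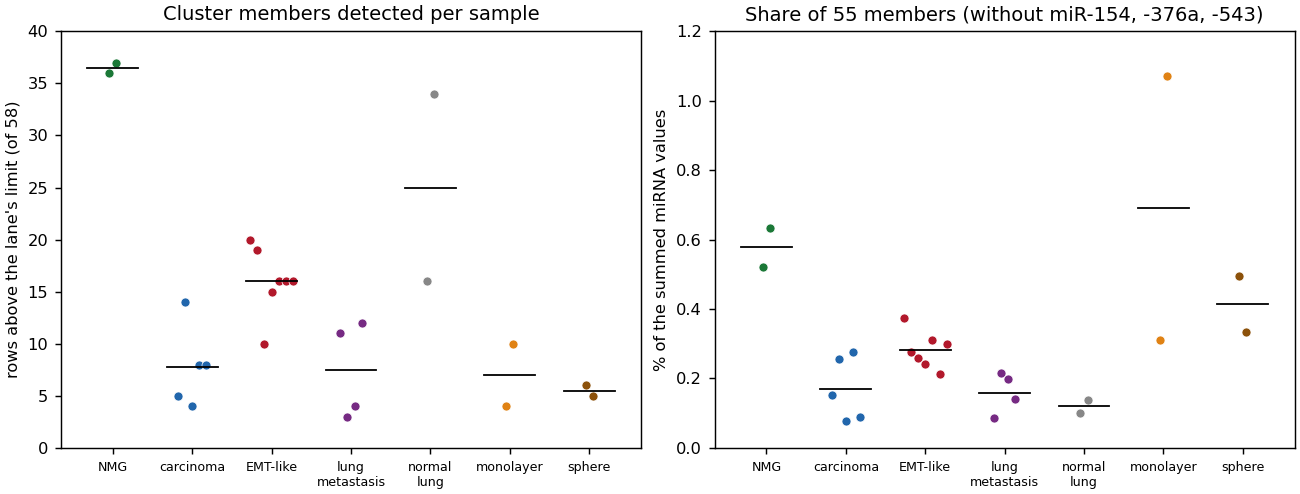
Left, the number of the 58 members above the lane's detection limit in each of the 24 samples (points) with the mean of each condition (line). Right, the sum of 55 members, without miR-154, miR-376a and miR-543, as a percentage of the summed mouse miRNA values. NMG had 36 and 37 members detected against at most 20 in any tumor or culture sample, while the monolayer share of 1.07% comes from a lane with a miRNA sum of 24418. Of all 566 mouse miRNA rows, NMG had 358 and 345 detected against at most 258 in any tumor or culture sample.

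To compare levels, the values were scaled between lanes by TMM factors, and these are called normalized values. In NMG, the highest normalized values of the Meg3 to Rian segment were those of miR-136 (269 ± 0.624, SD, n = 2) and miR-127 (119 ± 33.8), followed by miR-434-3p (32.1 ± 0.707) and miR-434-5p (29.9 ± 4.98). These 4 rows come from 3 hairpins that lie 51.9 to 54.3 kb from the annotated start of Meg3. Of the 18 members of this segment, 10 were detected in NMG, and the 2 members placed inside Rian, miR-341 and miR-370, were not. Of the 40 members of the Mirg segment, 28 were detected in NMG. The highest there were miR-154 (508 ± 144), miR-376c (89.1 ± 1.60), miR-377 (83.7 ± 7.08), miR-329 (77.7 ± 10.3) and miR-376b (75.0 ± 16.8). Probes can differ in efficiency, so the order of different members is a description of values and not of RNA amounts.

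**Figure D2:**
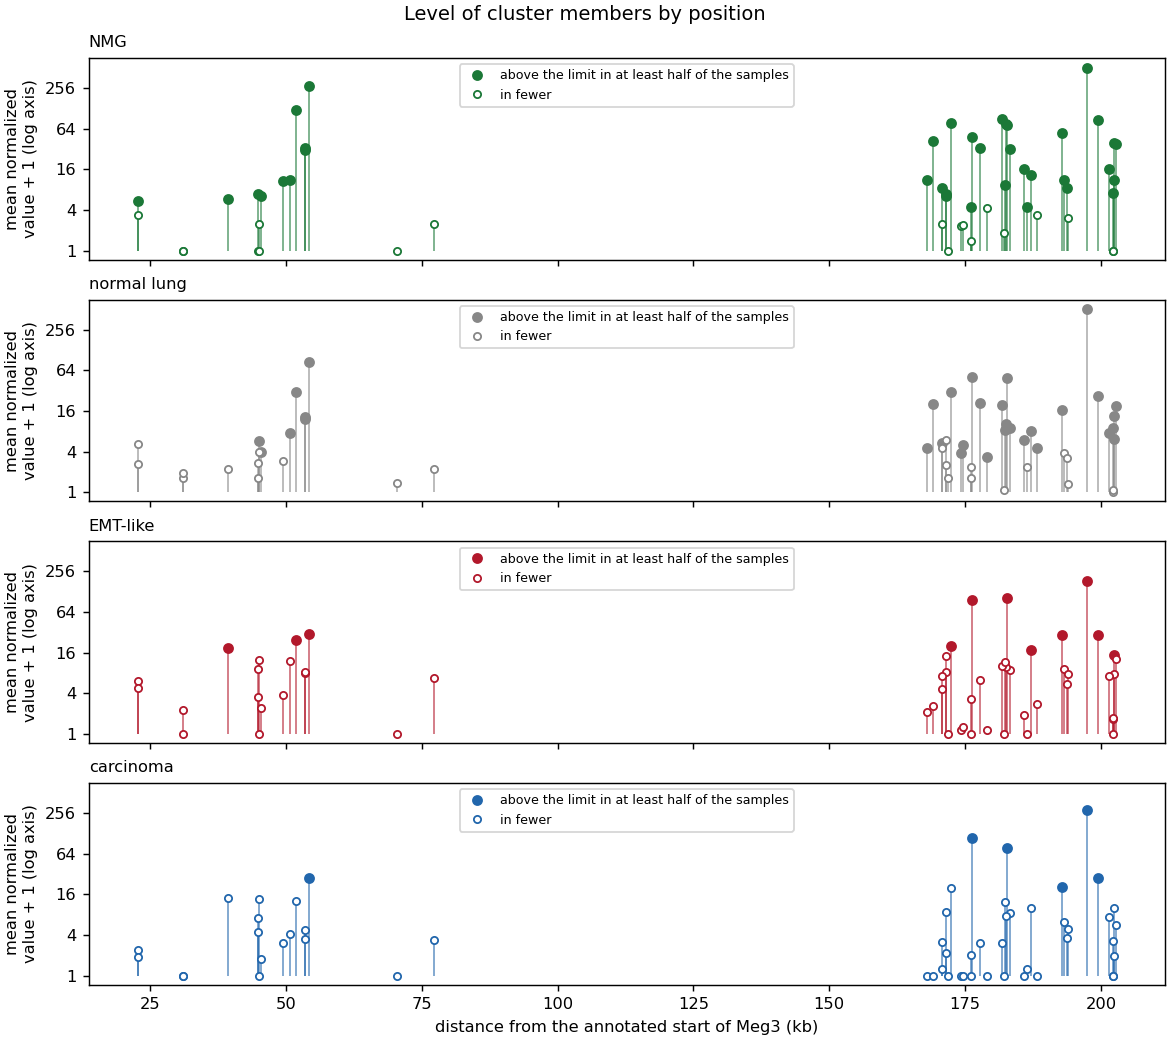
Mean normalized value plus 1 (log axis) of the members with a known position, against the distance from the annotated start of Meg3 in kb, in NMG, normal lung, EMT-like and carcinoma samples. Filled points mark members above the detection limit in at least 50% of the samples of the condition and open points the others. Of all 58 members, 38 reached that mark in NMG, 34 in normal lung, 11 in EMT-like areas and 6 in carcinoma; miR-299 and miR-496 have no position and are not drawn.

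Carcinoma areas were compared with NMG. Of 57 members tested, 18 fell and 2 rose at an adjusted p under 0.05 (limma). The 18 are 31.6% of the members, against 23.7% of all 583 rows called lower, and the 2 are 3.51% against 5.49% of all rows called higher. The 18 that fell comprised 5 members of the Meg3 to Rian segment and 13 of the Mirg segment. The median log2 difference was -1.47 over the members and -0.67 over all rows. With members that are undetected in a group set to the bound that the detection limit allows, both medians were 0, since 16 of the 57 members were detected in both groups. The share that fell was not far from that of all rows, so these calls do not set the cluster apart. They depended on how lanes were scaled: without scaling 38 members were lower and 1 higher, and with the 100 most abundant miRNAs as the scale 11 were lower and 2 higher. With NMG replicate 1 or NMG replicate 2 left out, 11 members were called.

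miR-136 passed the test in both comparisons with NMG under every alternative run. Its deposited values were 651 and 725 in NMG against 22, 26, 20, 28 and 18 in carcinoma and 18, 48, 39, 38, 29, 31 and 25 in EMT-like areas. All 12 tumor samples were below both NMG samples. The normalized level was 26.8 ± 6.15 in carcinoma (n = 5), 9.91-fold below NMG (log2 -3.31 ± 0.49, SE, adjusted p = 2.58e-05). In EMT-like areas it was 29.4 ± 10.9 (n = 7), 9.38-fold below NMG (log2 -3.23 ± 0.47, adjusted p = 2.12e-05).

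miR-127 had deposited values of 231 and 385 in NMG, 10, 14, -2, 23 and 2 in carcinoma, and 9, 42, 7, 26, 56, 26 and 19 in EMT-like areas. Neither tumor group overlapped with NMG, but the tumor groups overlapped with each other. miR-127 was above the limit in 2 of 5 carcinoma and 5 of 7 EMT-like samples. It was 15.7-fold lower in carcinoma (log2 -3.98 ± 0.96, adjusted p = 0.00352) and 5.86-fold lower in EMT-like areas (log2 -2.55 ± 0.92, adjusted p = 0.0462). The latter call was lost under 18 of 34 alternatives (adjusted p up to 0.369), among them scaling by the miRNA total and leaving out either NMG sample. Its neighbors miR-434-3p, with 79 and 85 in NMG and at most 9 in carcinoma, and miR-434-5p, with 64 and 90 and at most 7, fell at least 1.82-fold and 1.69-fold in carcinoma. Such a bound sets the NMG mean against the detection limits of the carcinoma lanes.

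In the Mirg segment, miR-411 had 109 and 100 in NMG and no value above -1 in carcinoma or above 6 in EMT-like areas. It was at least 2.30-fold lower in carcinoma (adjusted p = 1.39e-06) and at least 3.40-fold lower in EMT-like areas (adjusted p = 7.68e-06). miR-379, whose 3p arm has the same seed as that of miR-411 while the 5p seeds differ, had 26 and 25 in NMG and at most 0 in carcinoma and 8 in EMT-like areas. Neither row names its arm. miR-379 passed the test in both comparisons (adjusted p = 0.000512 and 0.00142), but at this level no fold above 1 can be given. miR-376c had 219 and 237 in NMG, and -2, -4, 0, 8 and -4 in carcinoma. It was at least 4.96-fold lower there (adjusted p = 0.000233) and 12.1-fold lower in EMT-like areas (adjusted p = 0.0105). Its relative miR-376b had 153 and 234 in NMG and from -4 to 16 in carcinoma, and was 17.8-fold and 8.42-fold lower in carcinoma and EMT-like areas (adjusted p = 0.00235 and 0.0155). miR-495 had 73 and 93 in NMG against -8, -3, -1, 6 and 2 in carcinoma, and fell at least 1.83-fold in carcinoma (adjusted p = 0.00146) and 6.87-fold in EMT-like areas (adjusted p = 0.0183). The folds given here without a bound also rest on values under the limit. Of the carcinoma samples, 1 of 5 was above it for miR-376b. Of the EMT-like samples, 3 of 7 were above it for miR-376b and for miR-376c, and 1 of 7 for miR-495.

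The other members that fell in carcinoma did so by less or lay close to the limit. miR-382 was 2.77-fold lower (53.8 ± 3.14 against 19.7 ± 7.08 normalized, adjusted p = 0.0433), and miR-410 at least 2.07-fold lower (adjusted p = 0.0083). miR-381, with 37 and 41 in NMG and no value above -1 in carcinoma, miR-323-3p, miR-487b and miR-665 passed the test with no fold above 1 that the limits allow. miR-654-5p and miR-667 passed although neither was above the limit in any sample of these groups, so nothing can be said of their levels. Leaving out NMG replicate 1 or replicate 2 ended the calls of miR-323-3p, miR-382, miR-410, miR-434-3p, miR-434-5p and miR-665.

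The comparison of EMT-like areas with NMG uses the same 2 NMG samples and is therefore not independent of the first. There, 13 of 57 members fell, 22.8% against 20.2% of all rows, and 2 rose, 3.51% against 4.46% of all rows. The share that fell was near that of all rows, so these calls do not set the cluster apart. Beside those given above, miR-154 fell 2.79-fold (adjusted p = 0.000202), miR-381 fell at least 1.32-fold, and miR-409-5p, miR-487b, miR-654-5p and miR-667 were called with no fold above 1 or under the limit. The median log2 difference was -0.86 over the members and -0.30 over all rows. Without scaling, 25 members were lower and 1 higher, with the 100 most abundant miRNAs as the scale 7 were lower and 5 higher, and with 1 or the other NMG sample left out 9 members were called, with miR-376b, miR-376c, miR-409-5p and miR-495 among those lost.

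Against NMG, miR-337-5p and miR-543 were called higher in both tumor areas. miR-337-5p had -9 and 0 in NMG, from 2 to 8 in carcinoma, none of them above the limit, and from 4 to 13 in EMT-like areas with 3 of 7 detected. It was called higher in EMT-like areas (adjusted p = 0.00376), where its mean lay 1.85-fold above the NMG limits. That mean includes EMT-like samples under their own limits, so it is not a firm bound. Before scaling, the EMT-like values of 4 to 13 lay on both sides of the NMG limits of 8.58 and 10.4. miR-543 is described below with its control signal.

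Other cell types moved with these comparisons. The summed normalized values of the 5 stromal and smooth muscle miRNAs on the panel were 15164 to 16236 in NMG against 1646 to 2959 in carcinoma and 1859 to 4173 in EMT-like areas. The endothelial miR-126 rows gave 10971 to 17649 against 1067 to 1894 and 1314 to 2626, and the erythroid rows 7971 to 8374 against 77.4 to 203 and 72.0 to 263. The 5 immune rows gave 2935 to 6195 in NMG, 522 to 2031 in carcinoma and 814 to 1272 in EMT-like areas. The 4 skeletal muscle rows differed between the NMG samples themselves, at 44.5 and 1027, and reached at most 75.2 in tumors. All 5 stromal, both endothelial and all 5 immune rows were detected in both NMG samples. In both tumor areas, 4 of 5 stromal, 2 of 2 endothelial, 2 of 2 erythroid and 3 of 5 immune rows were called lower than in NMG, and 1 immune row, miR-142-5p, was called higher in carcinoma. The 7 epithelial rows, the miR-200 family, miR-203 and miR-205, gave 2925 to 4061 in NMG, 930 to 5385 in carcinoma and 59.4 to 1758 in EMT-like areas. Of these, 1 of 7 was called lower than in NMG in carcinoma and 4 of 7 in EMT-like areas. Among the skeletal muscle rows, 2 of 4 were called lower in carcinoma and 1 of 4 in EMT-like areas. The part of these cell types in the cluster values was not tested. In samples of many cells, fewer cells of a type and less RNA per cell cannot be told apart.

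**Figure D3:**
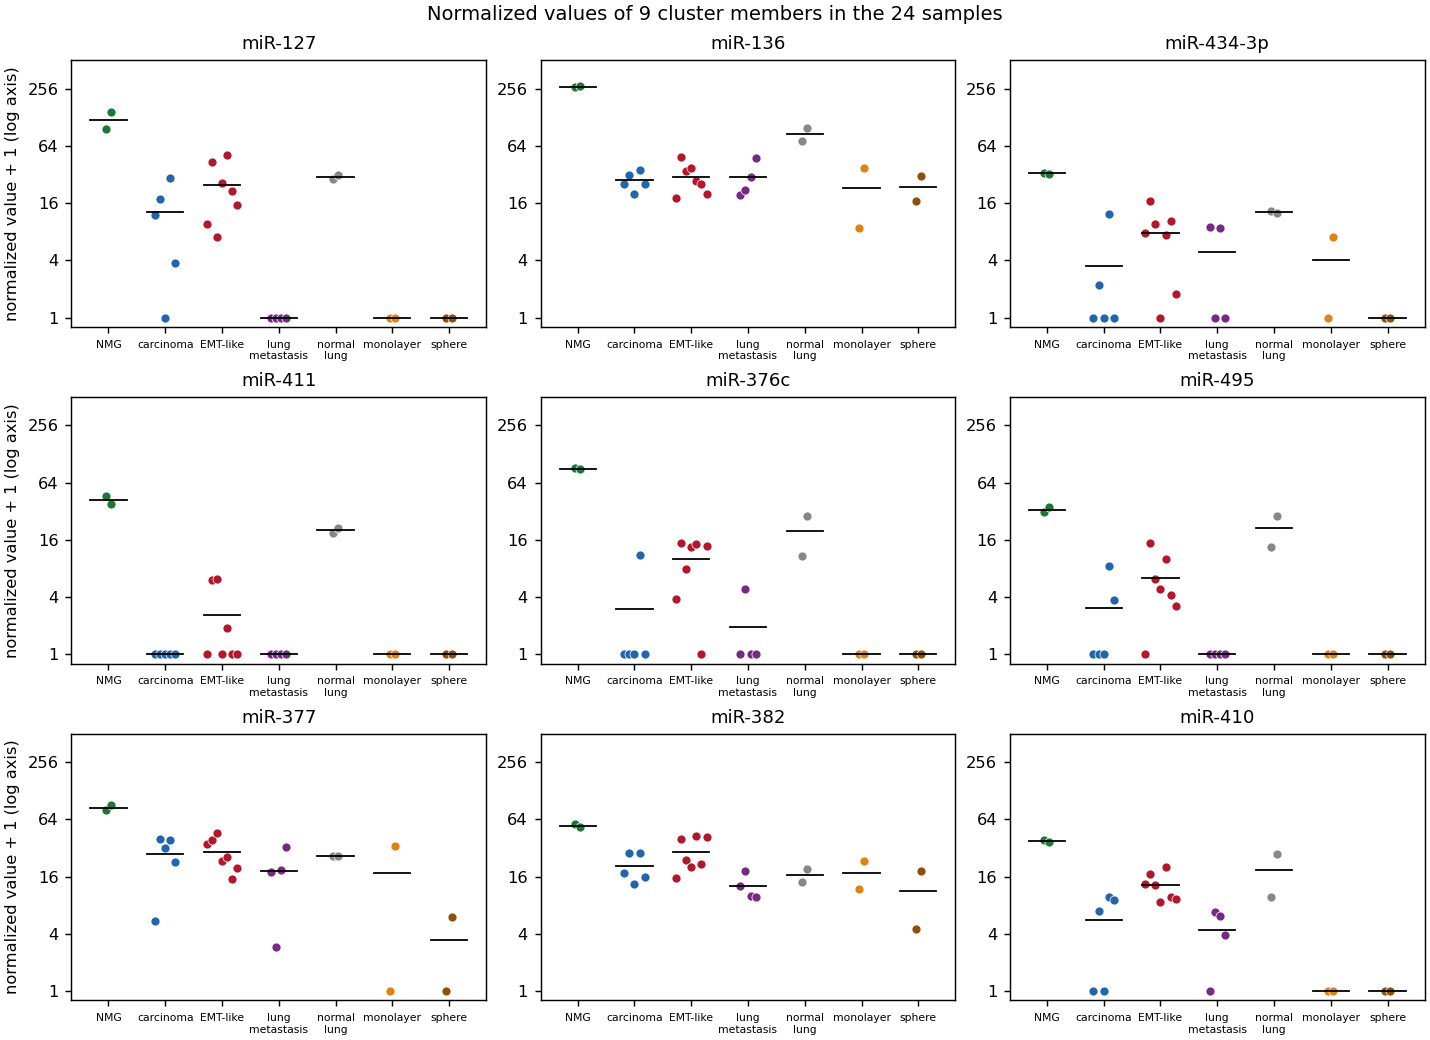
Normalized value plus 1 (log axis) of 9 members in each of the 24 samples, by condition, with the arithmetic mean of each condition as a line. A point at 1 is a value at or below 0. NMG lies above every tumor sample for all 9 members, and miR-127 is at or below 0 in the 4 metastases and the 4 cultures. The 9 members are a selection, and their separation does not describe the whole cluster. For miR-376a, miR-493, miR-539 and miR-654-3p, among others not drawn, NMG does not lie above every tumor sample.

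Between EMT-like and carcinoma areas of the primary tumors, 1 member, miR-323-3p, was called higher in EMT-like areas, and it was the only row called higher among all 583 (0.172%). No member and no other row was called lower (0.0% of rows). At an unadjusted p under 0.05, 10 members were higher and 1 lower, against 60 and 21 of all rows, where 60 is 10.3% of the rows. The median log2 difference was 0.48 over the members and 0.16 over all rows, and 0 over either when undetected members were set to their bound.

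miR-323-3p had 30, 12, 10, 9, 9, 18 and 15 in EMT-like replicates 1 to 7 and -1, 3, 1, -2 and 1 in carcinoma replicates 1 to 5. The groups did not overlap. It was higher in the EMT-like area for 4 of 4 animal labels with both areas, by 1.52 to 4.89 on the log2 scale. The highest difference came from replicate 1, whose label names 3 animals. The log2 difference was 2.82 ± 0.48 (adjusted p = 0.00423), but only 3 of 7 EMT-like samples and no carcinoma sample passed the detection limit, so no fold above 1 can be given. Within the animals with lettered labels the difference was 3.25 and within those with numbered labels 2.84. The call was lost with the animal as a fixed block (log2 2.93, adjusted p = 0.833), with a higher background (log2 0.49, adjusted p = 0.609) and with a pseudocount of 10 (log2 1.01, adjusted p = 0.0644).

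The other members with an unadjusted p under 0.05 included miR-376c, with 3, 14, 8, 13, 15, -1 and 17 in EMT-like areas against -4 to 8 in carcinoma (log2 2.20 ± 0.74, adjusted p = 0.157), and miR-410, with 8 to 21 against 0 to 7 (log2 1.79 ± 0.64, adjusted p = 0.192). miR-539, a member detected in 6 of 7 EMT-like and 1 of 5 carcinoma samples, had a log2 difference of 1.23 ± 0.57 (adjusted p = 0.341), and miR-127 one of 1.43 ± 0.67 (adjusted p = 0.341). For each of these the normalized values of the groups overlapped. The 1 lower member was miR-154 (log2 -0.62 ± 0.19, adjusted p = 0.114). The 7 epithelial rows had a median log2 difference of -2.80 in the same comparison, and none of them was called.

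From primary tumors to lung metastasis, 3 members fell and none rose. The 3 are 5.26% of the members against 2.57% of all rows called lower, and 0.515% of all rows were called higher. At an unadjusted p under 0.05, 7 of 57 members were lower and 2 higher, against 51 and 39 of all 583 rows. miR-127 had -8, -8, -2 and -7 in the 4 metastases, below the limit in each, while 7 of 12 primary tumor samples were above it. The highest metastasis value equaled the lowest primary tumor value, and all the others were lower than every primary tumor sample. Its log2 difference was -3.74 ± 0.66 (adjusted p = 0.00131). It was lower in the metastasis than in the EMT-like area for 4 of 4 animal labels, by 3.26 to 4.70 on the log2 scale. These include the label that names 3 animals. No fold above 1 can be given because many tumor values were near the limits of the metastasis lanes. With the animal as a fixed block its adjusted p was 0.0634, and that of miR-329 was 0.207, which left miR-300 as the 1 call.

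miR-329 had 1, -4, 0 and 8 in metastases, with 1 of 4 detected, and 3 to 41 in primary tumors, with 7 of 12 detected. The normalized means were 3.24 ± 5.64 (n = 4) and 19.2 ± 13.5 (n = 12), a 6.97-fold difference (log2 -2.80 ± 0.68, adjusted p = 0.0202), although the groups overlapped. miR-300 had 0, -2, -1 and 0 in metastases and -8 to 18 in primary tumors, with 3 of 12 detected (log2 -2.85 ± 0.71, adjusted p = 0.0244). Without replicate 1, 2 or 3 of the metastases, miR-127 alone was called, and without replicate 4, miR-300 was not (adjusted p = 0.0549). With a higher background its sign turned (log2 0.31). miR-136, by contrast, had 14, 11, 23 and 32 in metastases and 18 to 48 in primary tumors, and the normalized values overlapped.

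Lung metastasis was also set against normal lung, which came from other animals without a label of tumor. Here 19 of 57 members were lower, 33.3% against 42.2% of all rows, and 2 were higher, 3.51% against 7.03%. The share that fell was below that of all rows, so these calls do not set the cluster apart. With the 100 most abundant miRNAs as the scale, 8 members were lower and 4 higher, and without scaling 36 were lower and 0 higher. miR-127 had 45 and 171 in normal lung and fell at least 1.97-fold (adjusted p = 0.000389). miR-411, with 29 and 116 in normal lung and no value above -4 in metastases, fell at least 1.33-fold (adjusted p = 1.16e-05). miR-495, with 20 and 157, fell at least 1.29-fold, and miR-376c at least 1.16-fold. miR-136 was 2.99-fold lower (114 and 549 in normal lung, adjusted p = 0.0137), miR-329 was 13.2-fold lower (46 and 174, adjusted p = 0.00521) and miR-154 was 2.53-fold lower (adjusted p = 0.000688). For miR-329, 1 of 4 metastases was above the limit, so its fold also rests on values under it. With the 100 most abundant miRNAs as the scale the sign turned for miR-136 (log2 0.18) and miR-154 (log2 0.46).

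Of the remaining 12 members called lower, miR-299, miR-300, miR-381, miR-409-5p, miR-667 and miR-679 were detected in 1 of the 2 normal lung samples and allowed no fold above 1. miR-341, miR-487b, miR-540-5p, miR-666-5p, miR-673-3p and miR-758 were not above the limit in any sample of these groups. Much of this comparison rested on normal lung replicate 2, the deepest lane: without it, 6 members were called, and miR-136, miR-329 and miR-376c were among those lost. The summed endothelial rows were 67772 to 70140 in normal lung against 819 to 3114 in metastases, and their part in the result was not tested.

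Normal lung and NMG differed in few members. Higher in normal lung were miR-299 and miR-540-5p, 3.51% of the members against 10.1% of all rows, and none was lower, against 1.2% of all rows. At an unadjusted p under 0.05, 7 of 57 members were lower and 5 higher, against 26 and 125 of all 583 rows. miR-299 had 8 and 48 in normal lung and 5 and 0 in NMG (adjusted p = 0.0256). Its normal lung mean lay 1.61-fold above the NMG limits, but the value of 8 was under its own lane's limit of 14.8. miR-540-5p was under the limit in all 4 samples. Both calls were lost with the animal as a fixed block, and with scaling by the miRNA total 5 members were lower and 1 higher. The median log2 difference was -0.85 over the members and 0.33 over all rows, and -0.13 and 0 with undetected members at their bound. miR-136 was 269 ± 0.624 in NMG and 84.0 ± 18.96 in normal lung, and the difference of lung minus NMG was -1.91 and -1.46 on the log2 scale in the 2 animals.

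In culture, no member differed between 3D spheres and monolayers, whereas 4.63% of all rows did. At an unadjusted p under 0.05, 2 of 57 members were lower in spheres and 0 higher, against 49 and 35 of all 583 rows. The cultures had few detected members. Apart from miR-154, miR-376a and miR-543, those detected in at least 1 culture were miR-136, miR-323-3p, miR-323-5p, miR-369-3p, miR-493, miR-540-3p, miR-654-3p and miR-770-3p. miR-323-3p had 22 and 19 in monolayers and 20 and 10 in spheres, and miR-540-3p had -5 and 14 in monolayers and 37 and 24 in spheres (log2 3.53 ± 1.81, adjusted p = 0.405).

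Compared with primary tumors, 9 members were lower in the cultures, 15.8% against 22.0% of all rows, and 4 were higher, 7.02% against 8.4%. With the 100 most abundant miRNAs as the scale, 7 were lower and 17 higher. miR-154 had 53, 37, 40 and 31 in cultures against 133 or more in every tumor sample and was 2.78-fold lower (adjusted p = 1.62e-06), although with the 100 most abundant miRNAs as the scale the sign turned (log2 0.88). miR-127 had no value above -8 in cultures (adjusted p = 0.000104). miR-329, miR-376b, miR-376c, miR-377, miR-410, miR-495 and miR-496 were also called lower, with no culture above the limit and no fold above 1. With a higher background the sign turned for miR-376b, miR-376c, miR-410 and miR-495. miR-377 was detected in 11 of 12 tumor samples, with values of 4 to 51, and in none of the cultures, where it reached 16. Higher in cultures were miR-323-3p (5.86-fold, adjusted p = 0.000165), miR-654-3p (2.83-fold, adjusted p = 0.0103), miR-543 and miR-370, the last under the limit in all cultures. The folds of miR-323-3p and miR-654-3p also rest on values under the limit. miR-323-3p was detected in 2 of 2 monolayers, 1 of 2 spheres, 3 of 7 EMT-like and no carcinoma samples. miR-654-3p was detected in 1 of 2 monolayers, no sphere, 1 of 5 carcinoma and 2 of 7 EMT-like samples. Both calls were lost with a higher background. That of miR-654-3p was also lost without scaling, with the 4 mRNA control probes as the scale and without monolayer replicate 2. The calls of miR-376c and miR-370 were lost under 17 of 34 and 18 of 33 alternatives. The endothelial and erythroid rows were at or below 0 in all 4 cultures, and their part in the difference was not tested.

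miR-154, miR-376a and miR-543 departed from the rest of the cluster, as they were detected in all 24 samples. miR-154 had 1480 and 1096 in NMG and 838 and 2907 in normal lung, which after scaling were 508 ± 144 and 518 ± 2.24. It was 277 ± 44.6 in carcinoma, 1.81-fold below NMG (adjusted p = 0.0229), 184 ± 50.8 in EMT-like areas, 205 ± 20.6 in metastases, 78.9 ± 4.86 in monolayers and 73.3 ± 5.06 in spheres. The tumor groups overlapped, and all of them lay between the normal tissues and the cultures. When lanes were scaled by the 100 most abundant miRNAs instead, the difference between carcinoma and NMG was 0.06 on the log2 scale, so the order of miR-154 depended on the scaling.

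miR-376a had 125 and 248 in NMG, 29 to 91 in carcinoma, 75 to 153 in EMT-like areas, 72, 89, 65 and 175 in metastases, 105 and 180 in normal lung, and 52 to 105 in cultures. It was called only in metastasis against normal lung, 2.94-fold higher (adjusted p = 0.0186), and without scaling the sign turned (log2 -0.56). Its relatives miR-376b and miR-376c, which lie beside it in the Mirg segment, were by contrast under the limit in every culture and every metastasis. miR-376a-3p and miR-376b-3p are identical at 18 of 21 bases, and neither row names its arm. Whether the probe for either takes up the other was not tested.

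miR-543 ranged only from 73 to 180 over all 24 lanes. The name of its probe carries the number 0.009, which was read here as the share of the positive control A signal that adds to its value. The name itself does not say so. The ratio of its value to control A was 0.00875 to 0.0197 with a median of 0.0101. After this signal was subtracted, miR-543 was detected in 10 of 24 samples. It was called higher than in NMG in carcinoma (2.36-fold, adjusted p = 0.0101) and EMT-like areas (2.001-fold, adjusted p = 0.0277), higher than in primary tumors in cultures (1.67-fold, adjusted p = 0.0207), and higher than in normal lung in metastasis (2.90-fold, adjusted p = 0.00145). After the subtraction the difference between carcinoma and NMG was -0.42 and that between metastasis and normal lung -2.22 on the log2 scale. No direction can therefore be given for miR-543.

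**Figure D4:**
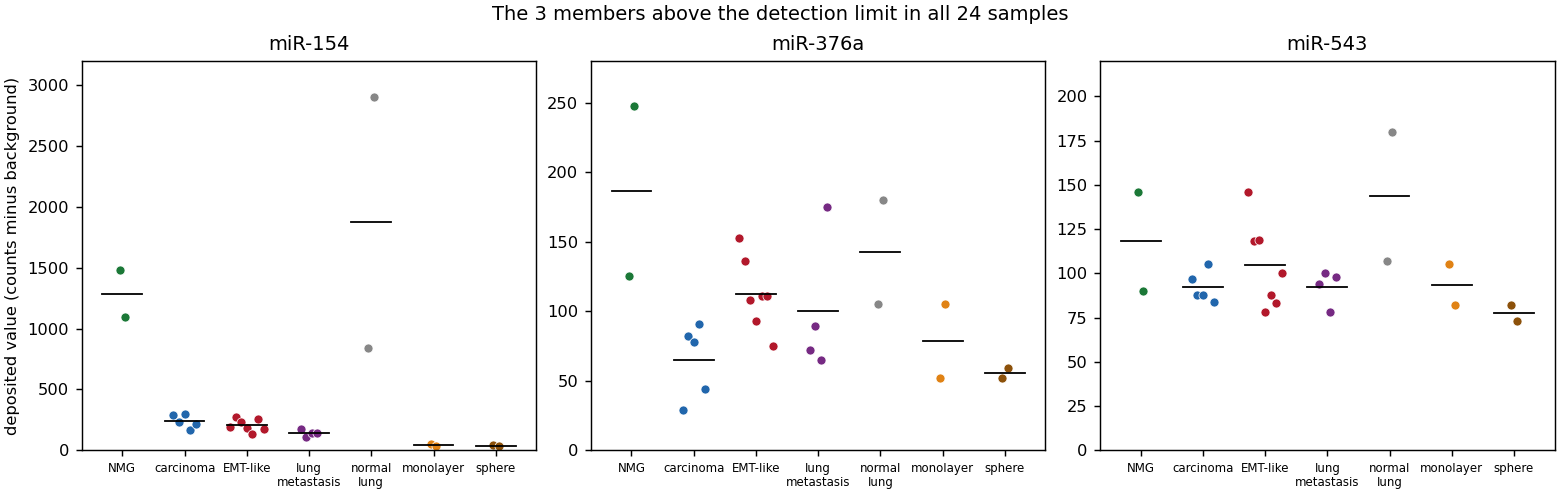
Deposited values, not scaled between lanes, of miR-154, miR-376a and miR-543 in each of the 24 samples, by condition, with the mean of each condition as a line. miR-154 ranges from 31 in a sphere culture to 2907 in normal lung replicate 2, whereas miR-543 stays between 73 and 180 in every lane.

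Other members were present in a few samples. miR-369-3p, miR-493 and miR-539 were each detected in 12 of 24 samples. miR-493 was detected in 7 of 7 EMT-like areas, with 15 to 25, in 1 of 5 carcinoma areas, with 6 to 17, and in 1 of 2 NMG samples, with 20 and 4, and was called in no comparison. miR-369-3p had 76 and 123 in NMG, 17 and 79 in normal lung, 8 to 21 in EMT-like areas and 1 to 15 in carcinoma. miR-134, which is known in neurons for the control of dendrite growth, had 34 and 17 in NMG, -8 to 11 in carcinoma and 1 to 16 in EMT-like areas, and was detected in 3 samples in all. miR-496 had 88 and 64 in NMG and 4 and 445 in normal lung, and so differed widely between the normal lung samples.

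Of the rest, miR-323-5p, miR-369-5p, miR-380-3p, miR-433, miR-541 and miR-770-3p were detected in 4 to 6 samples, with both NMG samples among them. In NMG their values were 16 and 12 for miR-323-5p, 29 and 23 for miR-369-5p, 20 and 18 for miR-380-3p, 32 and 19 for miR-433, 46 and 32 for miR-541, and 11 and 12 for miR-770-3p. Of these, miR-433 also reached 22 and 24 in EMT-like replicates 5 and 7. miR-409-5p and miR-665 were detected in NMG, with 13 and 19 and with 16 and 12, and in normal lung replicate 2, with 79 and 26. The others were rarer, with miR-337-3p, miR-431 and miR-668 detected in the 2 NMG samples alone, at 11 to 28, and miR-487b and miR-666-3p in NMG replicate 2 alone, at 11 each. Normal lung replicate 2 was the 1 sample above the limit for miR-299, miR-494, miR-544, miR-667 and miR-679, at 48, 32, 29, 26 and 46. miR-485 and miR-770-5p were each detected in 1 EMT-like sample, and miR-380-5p, miR-409-3p, miR-412 and miR-673-5p in none.

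The panel holds 5 more miRNAs of the Dlk1-Dio3 region that the list did not take, namely miR-453, miR-1188, miR-1193, miR-1197 and miR-1906. miR-453 was below 0 in every sample and was not tested. Of the 4 tested, none was called against NMG or between EMT-like and carcinoma areas. miR-1193 had values of 27 and 28 in NMG against 19 and 99 in normal lung, with -4 to 4 in metastases. It was lower in metastasis than in normal lung (at least 1.01-fold, adjusted p = 0.0143) and in cultures than in primary tumors (adjusted p = 0.0261). miR-1906 was called higher in cultures, with no culture above the limit.

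Among 8 rows of other imprinted loci (miR-335, miR-483, miR-675, miR-296 and miR-298), miR-296-5p passed the test as lower in either tumor area than in NMG although no sample of these groups was above its limit, and 4 rows were lower in metastasis than in normal lung. miR-335-5p, which is encoded in the imprinted gene Mest, had 224 and 294 in NMG, 23 to 102 in carcinoma, 40 to 151 in EMT-like areas, 13 to 30 in metastases and 513 and 1661 in normal lung. It was 10.5-fold lower in metastasis than in normal lung (adjusted p = 6.84e-05), while against NMG neither carcinoma (log2 -0.89 ± 0.57) nor EMT-like areas (log2 -0.14 ± 0.54) was called.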

How the data were processed

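RNA of 24 samples in 7 conditions was hybridized to the nCounter mouse miRNA panel, and the 618 rows of the table hold 566 mouse miRNAs, 33 viral miRNAs and controls. The deposited values are digital barcode counts per lane from which the mean of 6 negative control probes had been subtracted by the authors, with no scaling between lanes; the lowest is -20. Partek is named in the submitters' processing notes; the study's methods tie it to the microarrays, and its role for this panel is not given in the sources used here. Because background had been subtracted, the values are not raw counts and no count model was used.

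Samples were grouped by their titles. Values below 0 were set to 0 and scaled with TMM factors (trimming 30% of log ratios and 5% of levels, with carcinoma replicate 2 as the reference lane). They were tested on log2(normalized value + 1). Log2 differences of low values therefore depend on the floor at 0 and on the added 1. For miR-323-3p between EMT-like and carcinoma areas, 2.82 became 1.01 with a pseudocount of 10. The model was fitted with limma 3.58.1 and statmod 1.5.0 in R 4.3.3 on all 24 samples and 583 rows with a value above 0, with the animal or culture number as a random block (consensus correlation -0.0051). p-values were two-sided and adjusted by Benjamini-Hochberg over the 583 rows, with a threshold of 0.05. Of the 58 members, 57 were tested, and 30 reached 20 in at least 2 samples. Where every sample of 1 group was under the lane's limit (mean + 2 SD of its negative controls), the fold is a bound: the other group's mean on the log2 scale against these limits. No bound is given where it is 1 or less. A fold is the ratio on the scale of the normalized value + 1. Where each group had at least 1 sample above its limit, the fold is given without a bound. Such folds, and the mean used for a bound, also include samples under their own limits.

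Same-animal samples were checked for pairing over 196 rows: 10 pairs from the same animal label had correlations of their deviations from -0.307 to 0.295 (median 0.103), and 32 pairs from other animals of the same label series a median of 0.0827. No pair of samples of one condition shared more than 9.01% of its values. Replicates that share a label with 3 animals are pools or single areas that the labels do not tell apart, and with 2 samples in a condition the number of samples limits the precision. Positive control A ranged from 7950 to 11435.

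Members named with values are those detected in at least 50% of the samples of a condition or called in any of 8 comparisons, 52 in all. The members, the marker lists and the tests were chosen with earlier results of these data known. Scripts were run in Python 3.11.15 (numpy 2.4.6, pandas 2.3.3, matplotlib 3.10.9) and tested on simulated data. Alternatives were other scalings, a filter, a higher background, a pseudocount of 10, subtraction of the control A signal, other blocks, fits on the compared groups alone, and leaving out each sample.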

Additional observations from a re-analysis of the deposited data

Results flagged for a closer look

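In EMT-like areas, replicate 1 stood apart from the others for miR-323-3p, with a deposited value of 30 against 9 to 18 in the other 6 samples. In carcinoma areas, replicate 3 stood apart for miR-539, with -1 against 8 to 11 in the other 4 samples. These are 2 of 63 sets of samples tested for such a gap, and chance alone would set apart about 1 in 20.

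The difference between lung metastasis and normal lung differed from that between primary tumors and NMG for miR-299 and miR-540-5p (limma interaction over 583 rows). For miR-299 the log2 differences were -2.91 and -0.59, which differ by -2.32 (adjusted p = 0.0347), and 1 of 24 samples, normal lung replicate 2, was above the detection limit. For miR-540-5p they were -1.95 and 0, which differ by -1.95 (adjusted p = 5.53e-09), but no sample was above the limit.

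The difference between EMT-like and carcinoma areas differed between animals with lettered and with numbered labels for miR-673-5p, at 2.43 and 0 on the log2 scale (difference 2.43, adjusted p = 0.00136, limma interaction over 583 rows). No sample was above its limit.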

How the results depend on the processing

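Of 75 member calls over the 8 comparisons, 14 passed in the same direction under every alternative run: miR-136, miR-376c, miR-379, miR-381, miR-411 and miR-495 in carcinoma against NMG, miR-136, miR-337-5p, miR-379, miR-381 and miR-411 in EMT-like areas against NMG, and miR-127, miR-411 and miR-495 in metastasis against normal lung. miR-337-5p did not reach the filter on low values, so that alternative was not run for it (33 alternatives, against 34 for miR-136). The other 61 of the 75 calls were lost at least once, among them all calls between EMT-like and carcinoma areas, between metastasis and primary tumors, in cultures and between normal lung and NMG. The median detected was 36.5 members in NMG, 16 in EMT-like areas and 5.5 in spheres, which became 32, 9 and 4 with a limit of 3 SD, and 27.5 in NMG and 8 in EMT-like areas with a fixed limit of 20. Signals near the negative controls limit most members.

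Scaling moved the median of all rows. In carcinoma against NMG the shift was -1.13 on the log2 scale without scaling, 0.58 with the 100 most abundant miRNAs and -0.63 with the 4 mRNA control probes, and in metastasis against normal lung it was -1.44, 0.87 and -1.76. Without scaling, the 20 member calls in carcinoma against NMG became 39, the 15 in EMT-like areas 26, the 21 in metastasis against normal lung 36 and the 2 in normal lung against NMG 5. With the 100 most abundant miRNAs it became 13 in carcinoma against NMG, 12 in metastasis against normal lung and 24 (17 of them higher) in cultures. With the mRNA control probes it became 36 in metastasis against normal lung, 6 in normal lung against NMG and 8 in cultures, and with the miRNA total 6 in normal lung against NMG. The sign turned for miR-154 with the 100 most abundant miRNAs in carcinoma against NMG (0.056), metastasis against normal lung (0.46; 0.14 with the total) and cultures (0.88), and for miR-136 in metastasis against normal lung (0.18). The sign of miR-543 turned without scaling in carcinoma (-0.32) and EMT-like areas (-0.16) against NMG, metastasis against normal lung (-0.59) and cultures (-0.20), with the mRNA probes in EMT-like areas (-0.017) and metastasis (-0.91), and with the control A signal subtracted in carcinoma (-0.42) and metastasis (-2.22). That of miR-376a in metastasis turned without scaling (-0.56) and with the mRNA probes (-0.84).

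A higher background, a further 2 SD subtracted and a floor of 1 set before scaling, gives undetected members values that follow the lane's scale factor. Under it the calls became 0 for EMT-like against carcinoma areas, 18 for metastasis against primary tumors, 46 and 43 for carcinoma and EMT-like areas against NMG, 24 for normal lung against NMG, 1 for spheres and 34 for cultures. The sign turned for miR-300 in metastasis against primary tumors (0.31), for miR-487b, miR-654-5p and miR-667 in carcinoma (0.63) and EMT-like areas (0.44) against NMG, for miR-341, miR-487b, miR-540-5p, miR-666-5p, miR-673-3p and miR-758 (0.84) and miR-667 (0.40) in metastasis against normal lung, for miR-540-5p in normal lung against NMG (-0.011), and in cultures for miR-376b (0.36), miR-376c (0.40), miR-410 (0.20) and miR-495 (0.48). With a pseudocount of 10 the calls became 0 for EMT-like against carcinoma areas, 23 for EMT-like areas against NMG and 11 for normal lung against NMG, and with the filter on low values, which tests 30 members, 12 for metastasis and 0 for normal lung. With only the compared groups in the fit, metastasis against normal lung had 13.

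With the animal as a fixed replicate block the calls became 0 for EMT-like against carcinoma areas, 1 for metastasis against primary tumors and 0 for normal lung against NMG, and without any block they were 1, 3 and 2, and 21 for carcinoma against NMG. The fixed block was not run where the groups share no animals, and fits of 4 samples had no random block. Leaving out 1 sample at a time gave 1 to 2 calls for EMT-like against carcinoma areas, 1 to 3 for metastasis against primary tumors (1 without metastasis replicate 1, 2 or 3), 11 to 24 for carcinoma against NMG and 9 to 17 for EMT-like areas against NMG (lowest without either NMG sample), 6 to 27 for metastasis against normal lung (6 without normal lung replicate 2), 2 to 7 for normal lung against NMG, 0 to 1 for spheres and 9 to 14 for cultures. Without 1 or the other normal lung sample, that of miR-487b ran from -1.87 to 0.00038 and that of miR-666-5p from -1.88 to 0.0019. Except where a floor, a filter or fewer samples shows it, the cause was not tested.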
